A study of Mus musculus with 110 samples.

Results

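The heat shock genes and the cold-inducible RNA-binding genes were followed across 4 tissues of mice exposed to cold, to methionine restriction, or to both. The set was given by name and held 10 of the 56884 genes in the count tables. These were the RNA-binding genes Cirbp and Rbm3, the HSP70 genes Hspa1a, Hspa1b and Hspa8, the HSP110 gene Hsph1, the HSP90 gene Hsp90aa1, the HSP40 gene Dnajb1, the small heat shock gene Hspb1 and the collagen chaperone gene Serpinh1. All 10 passed the filter on low counts in each of the 4 tissues.

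The animals were 28 adult male wild-type C57BL/6N mice, housed singly, in 4 groups of 7. Ctrl_RT mice ate a control diet with 0.86% methionine (by the series' design text) for 7 days at 22 °C, and MetR_RT mice ate a methionine-restricted diet with 0.12% methionine at the same temperature. Ctrl_CE and MetR_CE mice ate these diets and were then kept at 4 °C for a further 24 h. Both diets were free of cysteine, so the control groups lacked dietary cysteine too. Poly(A) RNA was sequenced from liver, interscapular brown fat (iBAT), inguinal white fat (iWAT) and epididymal white fat (eWAT), which gave 110 libraries with totals between 6987895 and 33444374 counts. The study used 5 fewer libraries, 1 of iBAT and 4 of eWAT. No label names them. They were inferred from the numbers per group that the study states as left out and from its mean count of each gene over the tissue. They were left out here too, and 105 were used. Groups held 7 mice, except 6 in iBAT Ctrl_RT, iBAT Ctrl_CE, iWAT MetR_CE and eWAT MetR_RT and 4 in eWAT Ctrl_RT. The study lists 7 for iBAT Ctrl_RT and iWAT MetR_CE, though it also states that 1 sample was lost in preparation in iWAT and iBAT. In iBAT, 3 libraries carried a treatment tag that differed from their title, and they were grouped by title. Hepatocyte markers summed to between 48088 and 85399 CPM (counts scaled to the library total) in liver and adipocyte markers to between 14387 and 31806 CPM in iWAT and eWAT over all groups, and no defining marker was at 0 in its own tissue.

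Heat shock proteins are molecular chaperones that hold, fold or help to degrade client proteins. Under proteotoxic stress the transcription factor HSF1 forms trimers, binds heat shock elements in promoters and raises transcription. Hspa1a, Hspa1b, Hsph1, Dnajb1 and Hspb1 are classic targets, whereas Hspa8 encodes the constitutive HSP70. CIRBP and RBM3 are small glycine-rich RNA-binding proteins whose transcripts are known to accumulate when the temperature of cells falls slightly. Brown fat makes heat in the cold and inguinal fat can acquire brown-like cells.

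A heat shock element is built from inverted repeats of the unit GAA, and the upstream sequences in which facing units were found are printed so that they can be read beside the values of these members. In the 250 bases before the RefSeq transcription start (assembly GRCm38.p6), available here for 7 of the 10 members, GAANNTTC or TTCNNGAA was found for 4 members, Hspa1a, Hspa1b, Hspb1 and Hsph1. Each of these letter patterns reads the same on both strands. Of all 32851 windows of this length in the RefSeq table, 12.8% held a match. A longer form, GAANNTTC followed by NN and then GAA, was searched first on both strands and was in none of the members' windows and in 0.466% of all windows. The windows are given 5′ to 3′ on the strand of the gene, with the matched letters in capitals.
Hspa1a (chr17:34972157-34972406, minus strand): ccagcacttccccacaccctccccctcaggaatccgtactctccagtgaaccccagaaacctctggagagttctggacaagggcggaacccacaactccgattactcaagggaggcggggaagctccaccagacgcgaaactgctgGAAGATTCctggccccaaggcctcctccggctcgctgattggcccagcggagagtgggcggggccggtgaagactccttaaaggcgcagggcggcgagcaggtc
Hspa1b (chr17:34959239-34959488, minus strand): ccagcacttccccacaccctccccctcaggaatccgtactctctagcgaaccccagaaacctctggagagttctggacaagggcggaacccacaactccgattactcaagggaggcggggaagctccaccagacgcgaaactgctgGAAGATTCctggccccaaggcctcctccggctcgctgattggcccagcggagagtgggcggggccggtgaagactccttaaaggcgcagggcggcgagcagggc
Hspb1 (chr5:135887669-135887918, plus strand): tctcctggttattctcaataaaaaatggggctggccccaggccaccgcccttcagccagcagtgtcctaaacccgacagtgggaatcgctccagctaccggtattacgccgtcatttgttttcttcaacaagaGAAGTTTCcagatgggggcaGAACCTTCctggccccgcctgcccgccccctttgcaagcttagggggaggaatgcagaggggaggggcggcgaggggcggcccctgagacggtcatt
Hsph1 (chr5:149636337-149636586, minus strand): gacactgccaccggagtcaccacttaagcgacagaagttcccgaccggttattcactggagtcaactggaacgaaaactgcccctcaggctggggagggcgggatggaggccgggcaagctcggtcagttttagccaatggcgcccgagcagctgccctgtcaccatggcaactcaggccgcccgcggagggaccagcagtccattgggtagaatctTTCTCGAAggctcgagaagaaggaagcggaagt
The Hspa1a and Hspa1b windows differed at 3 of 250 positions, and in both the match lay from −104 to −97 relative to the start. The Hspb1 window held 2 matches, from −117 to −110 and from −97 to −90. In Hsph1 the match lay from −33 to −26, or from −54 to −47 in the window of another RefSeq start of the gene (chr5:149636316-149636565). A match describes the letters and was not tested as a binding site.

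Several members share sequence with other genes, so that reads could be assigned to either. Hspa1a (chr17:34969190-34972156) and Hspa1b (chr17:34956436-34959238) are neighbours in mm10 on the minus strand, and 58.8% of the 50-base words in Hspa1a transcripts also occurred in Hspa1b. Words shared with any other gene made up 39.4% of Hspa8 (chr9:40800984-40810087), 47.5% of Hsp90aa1 (chr12:110690605-110702728) and 50.1% of Hspb1 (chr5:135887919-135889563), for the most part through Gm15459, Gm12346 and Hsp25-ps1. Cirbp (chr10:80165985-80172786), Hsph1 (chr5:149614287-149636376) and Serpinh1 (chr7:99345376-99353239) shared none, Dnajb1 (chr8:83608193-83612653) shared 0.4% and Rbm3 (chrX:8138975-8145880) shared 9.7%. The library kit did not keep strand, so Rbm3 could not be separated from the antisense gene Rbm3os over 94 exonic bases, nor Hspa1a from Gm20481 over 564 bases. Values of the genes that share sequence are uncertain to that extent.

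Levels at room temperature on the control diet differed widely between members. Per kilobase of exon, the median level in Ctrl_RT mice was 356 CPM per kb for Serpinh1 in iWAT and 144 CPM per kb for Hspa8 in liver, while Hspa1a in liver stood at 0.131 CPM per kb. Hspa1b, the near-identical copy of Hspa1a, stood at 1.98 CPM per kb in liver, and reads could be split between the copies. With all tissues scaled together, Rbm3 was higher in every eWAT mouse than in any liver mouse, and Hsph1 was higher in every liver mouse than in any iWAT mouse. Hspb1 was higher in every iBAT mouse than in any eWAT mouse, and Hspa1a in every iWAT mouse than in any eWAT mouse. Serpinh1 ran from iWAT through eWAT and iBAT down to liver, with no overlap between iWAT and eWAT or between iBAT and liver. All other neighbouring tissues in each gene's order overlapped. Spread between mice also differed by gene. The median coefficient of variation within groups was 41.4% for Hspa1a and 34.3% for Hspa1b, against 10.3% for Dnajb1 and 12.2% for Rbm3.

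Rbm3 rose with cold in the 3 fat depots of mice on the control diet and was not called in liver. A gene was called when its adjusted p from edgeR's quasi-likelihood test was below 0.05 and its change was at least 1.5-fold. Of all genes tested between Ctrl_CE and Ctrl_RT, 15.9% were called in iWAT, 14.7% in iBAT, 2.42% in eWAT and 11.9% in liver. Of the 10 members, 3 were called in iWAT, 2 in iBAT, 1 in eWAT and 1 in liver. The p-values measure the spread between mice, and in whole tissue fewer cells of a type and less RNA per cell cannot be told apart.

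In iWAT, Rbm3 had a lowest, median and highest level of 46.8, 69 and 74.2 CPM in Ctrl_RT mice and of 111, 126 and 139 CPM in Ctrl_CE mice. MetR_RT mice had 68.7, 76 and 82.4 CPM, and MetR_CE mice 102, 123 and 133 CPM. On either diet every mouse in the cold lay above every mouse at room temperature. The log2 change with cold was 0.95 ± 0.09 (SE; adjusted p = 1.27e-07, a 1.94-fold rise) on the control diet and 0.68 ± 0.10 (adjusted p = 0.000195) on the restricted diet. In MetR_CE mice Rbm3 was 0.90 ± 0.10 higher than in Ctrl_RT mice on the log2 scale (adjusted p = 1.37e-07). The diet alone gave 0.22 ± 0.09 (adjusted p = 0.0946), and MetR_CE differed from Ctrl_CE by −0.06 (95% interval −0.25 to 0.14). The brown adipocyte markers moved in the same depot: their summed level was 89.1 to 852 CPM in Ctrl_RT and 869 to 6047 CPM in Ctrl_CE mice, and all 6 rose. Their part in the Rbm3 result was not tested.

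In iBAT, Rbm3 stood at 15.6, 22.2 and 28.4 CPM in Ctrl_RT mice and at 31.9, 34.2 and 36.7 CPM in Ctrl_CE mice. The restricted groups had 20.2, 22.4 and 24.6 CPM at room temperature and 21.1, 28.7 and 29.3 CPM in the cold. Every Ctrl_CE mouse lay above all mice of the other 3 groups, which overlapped one another. The change with cold on the control diet was 0.61 ± 0.10 on the log2 scale (adjusted p = 1.84e-05, 1.53-fold). It lay just past the fold threshold, and was 0.58 with all deposited libraries and 0.57 with groups taken from the treatment tags, both below it. Under restriction the change was 0.26 ± 0.10 (adjusted p = 0.0437, 1.20-fold), and MetR_CE differed from Ctrl_CE by −0.35 ± 0.10 (adjusted p = 0.0336, 1.27-fold), neither of which reached the fold threshold. The difference between the cold responses on the 2 diets, called the interaction, was −0.35 ± 0.14 (adjusted p = 0.262).

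In eWAT, the 4 Ctrl_RT mice had Rbm3 at 63.9, 64.2, 74.4 and 124 CPM, and the Ctrl_CE mice ran from 122 through a median of 157 to 160 CPM. MetR_RT mice had 77.3, 102 and 112 CPM as lowest, median and highest, and MetR_CE mice 102, 109 and 121 CPM. The highest Ctrl_RT mouse reached the range of the Ctrl_CE mice, and every MetR_CE mouse lay below every Ctrl_CE mouse. Cold raised Rbm3 by 0.86 ± 0.15 on the log2 scale (adjusted p = 0.00163, 1.82-fold) on the control diet, and by 0.74 (adjusted p = 0.00515) with all deposited libraries. MetR_CE differed from Ctrl_CE by −0.43 ± 0.12 (adjusted p = 0.0205, 1.35-fold), short of the fold threshold. MetR_CE against Ctrl_RT gave 0.43 ± 0.14 (adjusted p = 0.121), and the interaction was −0.67 ± 0.19 (adjusted p = 0.0543). Without the Ctrl_RT mouse at 124 CPM, replicate 6, MetR_CE against Ctrl_RT was 0.70 (adjusted p = 0.00154) and the interaction −0.94 (adjusted p = 0.00482). The interaction lay close to the threshold: it was also called with RLE factors, filterByExpr, DESeq2 without shrinkage or the replicate block, and without MetR_RT replicate 1 or 4 or Ctrl_CE replicate 4. It was not called with all deposited libraries, with apeglm shrinkage, without a filter on low counts or when tested against 1.5-fold itself.

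In liver, Rbm3 medians ran from 24.8 CPM in Ctrl_RT to 31.8 CPM in MetR_CE mice and all groups overlapped. The change with cold was 0.20 ± 0.11 (95% interval −0.03 to 0.43). When the 4 tissues were fitted together, the log2 change of Rbm3 with cold differed by 0.34 between iWAT and iBAT (adjusted p = 0.119), by 0.07 between iWAT and eWAT (adjusted p = 0.85) and by −0.39 between liver and iBAT (adjusted p = 0.0656). None of these 3 differences passed, and the other pairs of tissues were not tested.

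Cirbp, the other cold-inducible RNA-binding gene, was not called as higher in the cold in any tissue. In liver, Cirbp had 18.5, 26 and 38.9 CPM in Ctrl_RT mice and 14.7, 21 and 23.1 CPM in Ctrl_CE mice. MetR_RT mice had 28.8, 31.5 and 51.5 CPM and MetR_CE mice 17, 22.5 and 28.5 CPM. Every MetR_CE mouse was below every MetR_RT mouse, and Cirbp fell by 0.67 on the log2 scale between them (SE 0.15, adjusted p = 0.00133, 1.59-fold). It was the 1 member called in that comparison in liver, where 5.19% of all genes were called. On the control diet the liver change with cold was −0.37 ± 0.15 (adjusted p = 0.0547), and the diet alone gave 0.39 ± 0.14 (adjusted p = 0.0587). In iBAT the change with cold was −0.43 ± 0.16 (adjusted p = 0.038, 1.35-fold) on the control diet and −0.33 ± 0.15 (adjusted p = 0.111) under restriction. In iWAT it was 0.08 (95% interval −0.22 to 0.37) and in eWAT −0.22 (95% interval −0.58 to 0.15) on the control diet. The log2 changes of Rbm3 in these 2 depots lay above these intervals.

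**Figure D1:**
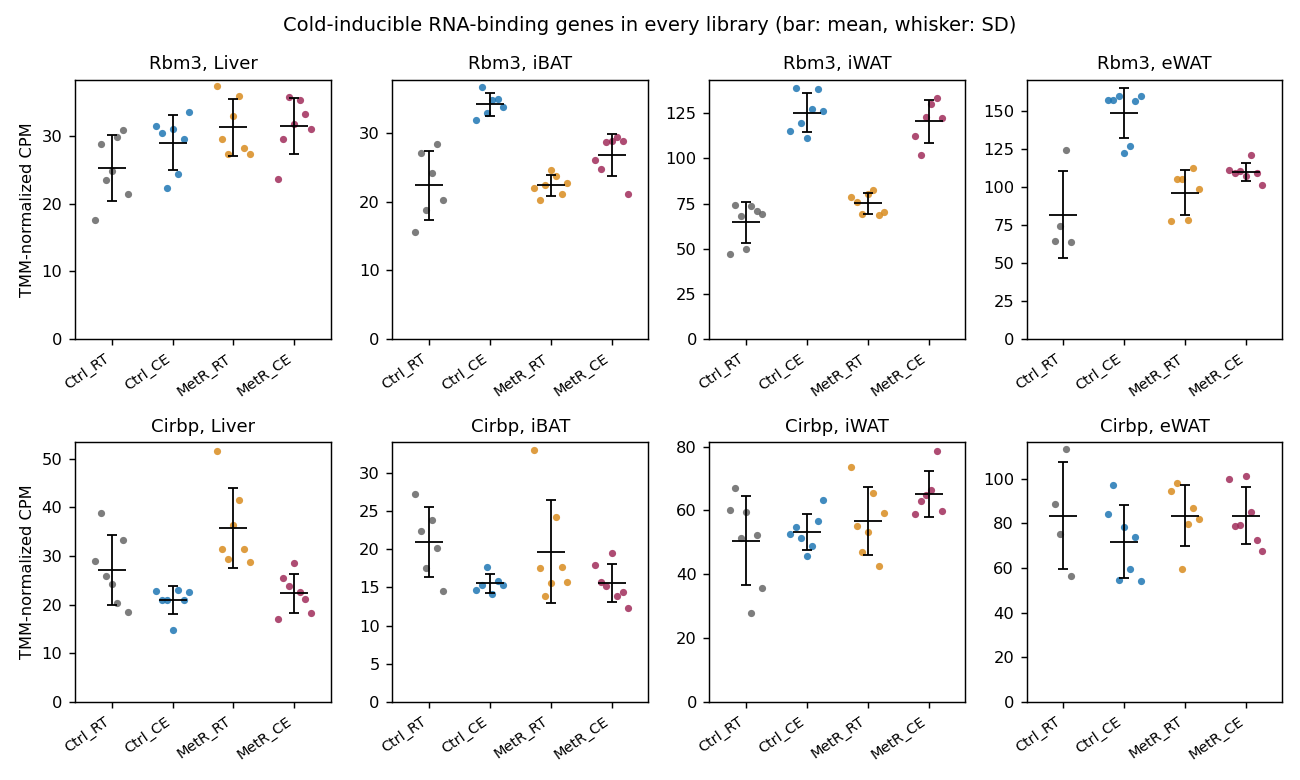
Level of Rbm3 (top) and Cirbp (bottom) in every library used, in TMM-normalized CPM on the y axis, by tissue and group on the x axis. Points are mice, bars the mean and whiskers the SD. In iWAT the Rbm3 points of both cold groups lie above those of both room temperature groups, and in liver the Cirbp points of MetR_CE lie below those of MetR_RT.

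The patterns most like that of Rbm3 over the 16 group means, each centred on its tissue, were those of Rsad1, Lrrc8d and Trib1. Their root mean square differences from Rbm3 were 0.0991, 0.124 and 0.130 on the log2 scale, where Rbm3 itself departed from a flat pattern by 0.304. For Cirbp the nearest genes were Rnf167 (0.0748), 5031425E22Rik (0.0868) and the splicing factor gene Srsf5 (0.0931), where Cirbp departed from a flat pattern by 0.194. These were the nearest of 8137 genes with at least 5 CPM in each tissue. In a list of 20 splicing and RNA-binding genes, 1 was called in iBAT with cold on either diet (beside 14.7% and 8.53% of genes), 1 in MetR_CE liver (beside 13.5%) and none in the other comparisons. Sfpq rose by 0.62 on the log2 scale in iBAT with cold on the control diet, and by 0.60 under restriction, and Tra2a fell by 0.61 in MetR_CE liver (adjusted p = 0.000515). Srsf7 had the smallest adjusted p of the list in iWAT with cold, with a log2 change of −0.57 (adjusted p = 1.74e-06), which is under 1.5-fold.

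The HSP70 members moved in different directions in different depots. Hspa1a and Hspa1b, the stress-inducible HSP70 genes, fell in iWAT under cold, under restriction and under both. Hspa8, whose product folds newly made proteins in unstressed cells, rose with cold in iBAT. Between MetR_RT and Ctrl_RT in iWAT, 11.6% of genes tested were called and 2 of the 10 members. Between MetR_CE and Ctrl_RT in iWAT, 22.4% of genes and 5 members were called. These comparisons share their Ctrl_RT mice.

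In iWAT, Hspa1a had a lowest, median and highest level of 2.24, 3.41 and 3.72 CPM in Ctrl_RT mice and of 1.17, 1.57 and 2.79 CPM in Ctrl_CE mice. The restricted groups had 0.953, 1.07 and 2.08 CPM at room temperature and 0.719, 1.02 and 1.45 CPM in the cold. Every restricted mouse lay below every Ctrl_RT mouse, and the highest Ctrl_CE mouse reached into the Ctrl_RT range. The log2 changes from Ctrl_RT were −0.91 ± 0.20 in Ctrl_CE (adjusted p = 0.00121), −1.22 ± 0.21 in MetR_RT (adjusted p = 0.000153) and −1.61 ± 0.22 in MetR_CE (adjusted p = 2.19e-06), the last a 3.04-fold lower level.

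Hspa1b, the neighbouring copy, was at 3.72, 6.67 and 7.55 CPM in Ctrl_RT iWAT and at 2.18, 2.41 and 5.38 CPM in Ctrl_CE iWAT. It was at 1.51, 2.31 and 4.40 CPM in MetR_RT mice and at 1.40, 1.57 and 2.38 CPM in MetR_CE mice. The MetR_CE mice all lay below the Ctrl_RT mice, and the other groups overlapped with them. Log2 changes from Ctrl_RT were −1.04 ± 0.23 (adjusted p = 0.00108), −1.33 ± 0.23 (adjusted p = 0.00021) and −1.87 ± 0.25 (adjusted p = 1.83e-06) for Ctrl_CE, MetR_RT and MetR_CE. Because these genes share most of their sequence, their counts were also summed, and the summed log2 changes were −1.0, −1.29 and −1.77, all called. The interaction was 0.52 ± 0.30 for Hspa1a (adjusted p = 0.37) and 0.50 ± 0.34 for Hspa1b (adjusted p = 0.462).

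Cell type markers moved in the same iWAT samples. The 6 macrophage markers all fell in all 3 comparisons with Ctrl_RT, and their summed level was 1025 to 1894 CPM in Ctrl_RT, 251.9 to 1258 CPM in Ctrl_CE, 211 to 912 CPM in MetR_RT and 162 to 398 CPM in MetR_CE mice. Fibroblast markers fell too, 2 of 6 with cold, 2 with restriction and 5 with both. Of 12 immediate early genes, which respond within minutes to handling or other stimuli, 5 fell with cold, 2 with restriction and 4 with both. The median of their summed level was not lower in the treated groups. It was 291.9 CPM in Ctrl_RT, 311.8 CPM in Ctrl_CE, 355.9 CPM in MetR_RT and 304.8 CPM in MetR_CE mice. Skeletal muscle markers summed to a median of 142 CPM in Ctrl_RT, 176 CPM in Ctrl_CE, 680 CPM in MetR_RT and 907 CPM in MetR_CE iWAT, with 1 MetR_RT library at 18935 CPM, and 1 of the 6, Myh1, rose with restriction and with both. The part of these markers in the Hspa1a and Hspa1b values was not tested.

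Elsewhere the inducible HSP70 genes gave few calls. In liver, Hspa1a was at 0.0832, 0.387 and 0.943 CPM in Ctrl_RT mice and at 0.0441, 0.131 and 0.348 CPM in MetR_RT mice, with overlap. It was called lower in MetR_RT (log2 change −1.66 ± 0.50, adjusted p = 0.018), 1 of 2 members called beside 6.91% of all genes. The call rests on 18 counts over all MetR_RT livers against 46 over all Ctrl_RT livers, a depth-adjusted ratio of 0.313 with an exact 95% interval of 0.171 to 0.550 that covers counting error only. It was lost when Hspa1a and Hspa1b were summed (−0.29, adjusted p = 0.522). Hspa1b in liver changed by 0.58 ± 0.26 with cold (adjusted p = 0.0913). In iBAT and eWAT neither gene was called in any comparison, and in iBAT the interval of the Hspa1a change with cold was wide, from −1.30 to 1.06.

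In iBAT, Hspa8 had 359, 518 and 713 CPM in Ctrl_RT mice and 689, 882 and 1171 CPM in Ctrl_CE mice. MetR_RT mice had 334, 430 and 662 CPM and MetR_CE mice 742, 809 and 1277 CPM. The 2 cold groups overlapped each other, and under restriction every mouse in the cold was above every mouse at room temperature. Cold raised Hspa8 by 0.78 ± 0.16 on the log2 scale (adjusted p = 0.000373) on the control diet and by 0.88 ± 0.15 (adjusted p = 5.37e-05) under restriction, and the interaction was 0.10 (95% interval −0.36 to 0.56). Outside iBAT its values were smaller: 0.46 ± 0.15 with cold in iWAT (adjusted p = 0.0171), and 0.42 ± 0.12 with restriction in liver (adjusted p = 0.0142), both under 1.5-fold. In eWAT, MetR_CE differed from Ctrl_CE by −0.54 ± 0.15 (adjusted p = 0.0205), again under 1.5-fold. The log2 change with cold was 0.63 lower in liver than in iBAT (difference −0.63 ± 0.22, adjusted p = 0.0232, in the joint fit, where 27.7% of genes passed in that pair of tissues).

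Hsph1 and Dnajb1 encode partners of HSP70, a nucleotide exchange factor and a J-domain protein that hands over clients. In iBAT, Hsph1 was at 65.3, 93.6 and 128 CPM in Ctrl_RT mice, 69.6, 120 and 176 CPM in Ctrl_CE mice, 53.8, 84.5 and 109 CPM in MetR_RT mice and 116, 132 and 202 CPM in MetR_CE mice. Every MetR_CE mouse lay above every MetR_RT mouse. The log2 change was 0.85 ± 0.17 between these groups (adjusted p = 0.000228) and 0.63 ± 0.17 between MetR_CE and Ctrl_RT (adjusted p = 0.0049). The latter fell to 0.54, under 1.5-fold, without MetR_CE replicate 4. Between MetR_CE and Ctrl_RT in iBAT 14.7% of genes and 4 members were called, and between MetR_CE and MetR_RT 8.53% of genes and 4 members.

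In iWAT the direction for Hsph1 was the other way. It was at 41.4, 54.6 and 67.4 CPM in Ctrl_RT mice and at 26.2, 37.5 and 39.3 CPM in MetR_CE mice, with no overlap, and the log2 change was −0.66 ± 0.21 (adjusted p = 0.0148). Without MetR_CE replicate 5, the mouse at 26.2 CPM, it was −0.58 (adjusted p = 0.0431), just under 1.5-fold. The genes nearest to Hsph1 in pattern were Hsp90ab1 and Hspa4l, which encode another HSP90 and another HSP110, and Plpp5, with root mean square differences of 0.144, 0.150 and 0.164 beside 0.249 for Hsph1 against a flat pattern.

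Dnajb1 was not called in any comparison. In iWAT its log2 changes were small with small errors, at 0.34 ± 0.07 with cold (adjusted p = 0.00048) and 0.41 ± 0.07 in MetR_CE (adjusted p = 4.43e-05). In MetR_CE mice it was 0.46 ± 0.11 higher than in Ctrl_RT in liver (adjusted p = 0.00196) and 0.45 ± 0.17 higher in iBAT (adjusted p = 0.0433). Dnajb1 and Hsph1 thus had opposite signs in MetR_CE iWAT and the same sign in MetR_CE iBAT.

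**Figure D2:**
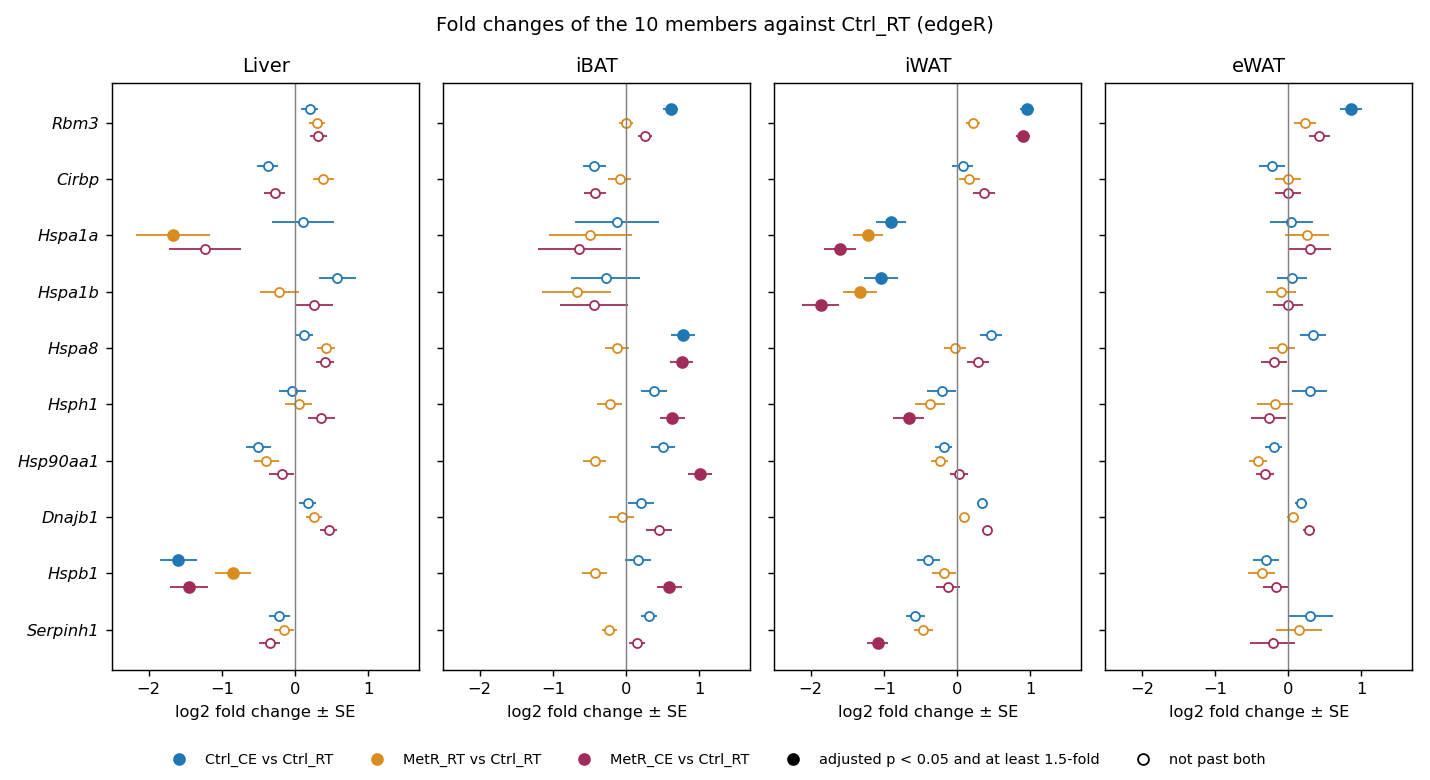
Log2 fold change against Ctrl_RT (x axis, with SE) for each of the 10 members (y axis) in the 4 tissues, for cold (Ctrl_CE), restriction (MetR_RT) and both (MetR_CE). Filled points passed the adjusted p and fold thresholds and open points did not. Hspa1a, Hspa1b and Serpinh1 lie to the left in iWAT, Hspb1 to the left in liver, and Hspa8 and Hsp90aa1 to the right in the cold groups of iBAT.

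Hsp90aa1, the inducible cytosolic HSP90, changed most in iBAT in the cold. It had 176, 276.8 and 513 CPM in Ctrl_RT mice and 345, 412 and 517 CPM in Ctrl_CE mice. In restricted mice it had 195, 213 and 262.2 CPM at room temperature and 517, 586 and 750 CPM in the cold. The restricted mice in the cold were all above both room temperature groups. The Ctrl_RT range reached that of Ctrl_CE through 1 mouse only, replicate 1 at 513 CPM. The next highest Ctrl_RT mouse was at 336 CPM, below every Ctrl_CE mouse. Between MetR_CE and MetR_RT it rose by 1.44 ± 0.15 on the log2 scale (adjusted p = 3.65e-08, 2.71-fold), and between MetR_CE and Ctrl_RT by 1.01 ± 0.16 (adjusted p = 8.93e-06). On the control diet the change with cold was 0.51 ± 0.16 (adjusted p = 0.0155, 1.42-fold). Ctrl_RT replicate 1 was not left out in turn, so its part in this change and in the interaction was not tested.

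The interaction of diet and cold for Hsp90aa1 in iBAT was 0.93 ± 0.22 (adjusted p = 0.0361), so the rise with cold was larger on the restricted diet. It was the 1 member called of 10, where 0.372% of all genes were called. This call was not stable. It was 0.56 (adjusted p = 0.518) with iBAT groups taken from the treatment tags, had an adjusted p of 0.0854 with the 3 libraries of conflicting labels left out, and of 0.0504 without MetR_RT replicate 3. In liver, Hsp90aa1 was at 155, 201 and 324 CPM in Ctrl_RT mice and at 99.9, 140 and 260 CPM in Ctrl_CE mice, a log2 change of −0.50 ± 0.17 (adjusted p = 0.0261, under 1.5-fold). In the joint fit, its log2 change with cold differed between liver and iBAT by −1.0 ± 0.22 (adjusted p = 0.000151) and between iWAT and iBAT by −0.70 ± 0.22 (adjusted p = 0.012, where 23% of genes passed).

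Hspb1, the small heat shock protein HSP25 that binds unfolding proteins and actin, fell in liver and rose in iBAT. In liver, Hspb1 had 11.7, 18.8 and 52.8 CPM in Ctrl_RT mice and 4.15, 7.17 and 13.6 CPM in Ctrl_CE mice. MetR_RT mice had 9.68, 12.2 and 19.6 CPM and MetR_CE mice 5.71, 8.95 and 11 CPM. The MetR_CE mice all lay below the Ctrl_RT mice, and 1 Ctrl_CE mouse reached their range. Log2 changes from Ctrl_RT were −1.59 ± 0.26 with cold (adjusted p = 1.93e-05, 3.02-fold lower), −0.85 ± 0.25 with restriction (adjusted p = 0.0142) and −1.45 ± 0.26 with both (adjusted p = 4.69e-05, beside 13.5% of genes and 1 of 10 members called). The Ctrl_RT mouse at 52.8 CPM, replicate 1, decided the call for restriction: without it the values were −1.24, −0.51 (adjusted p = 0.0816) and −1.10. Endothelial markers rose in liver with cold, 4 of 6, from a summed 78.8 to 104 CPM to 130 to 218 CPM, as did 3 of 6 macrophage markers, from 162 to 214 CPM to 165 to 563 CPM. Their part was not tested.

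In iBAT, Hspb1 had 50.1, 100 and 120 CPM in Ctrl_RT mice and 67.7, 101 and 156 CPM in Ctrl_CE mice, which overlapped. MetR_RT mice had 55.3, 73.7 and 87.4 CPM and MetR_CE mice 109, 130 and 189 CPM, which did not overlap. The log2 change under restriction was 1.02 ± 0.17 with cold (adjusted p = 2.23e-05). MetR_CE was 0.59 ± 0.17 above Ctrl_RT (adjusted p = 0.00745), a value that was 0.51 and under 1.5-fold without MetR_CE replicate 4. The cold response of Hspb1 differed between liver and iBAT by −1.75 ± 0.30 on the log2 scale (adjusted p = 1.68e-06). In iBAT the 6 brown adipocyte markers summed to 8728 to 11462 CPM in Ctrl_RT mice and 15616 to 18487 CPM in Ctrl_CE mice, and 4 rose. Fibroblast markers (6 of 6) and macrophage markers (5 of 6) fell in MetR_CE iBAT. Skeletal muscle markers ran from a summed 0.683 to 1630 CPM over the iBAT libraries, none of the 6 was called, and the part of these cell types was not tested.

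**Figure D3:**
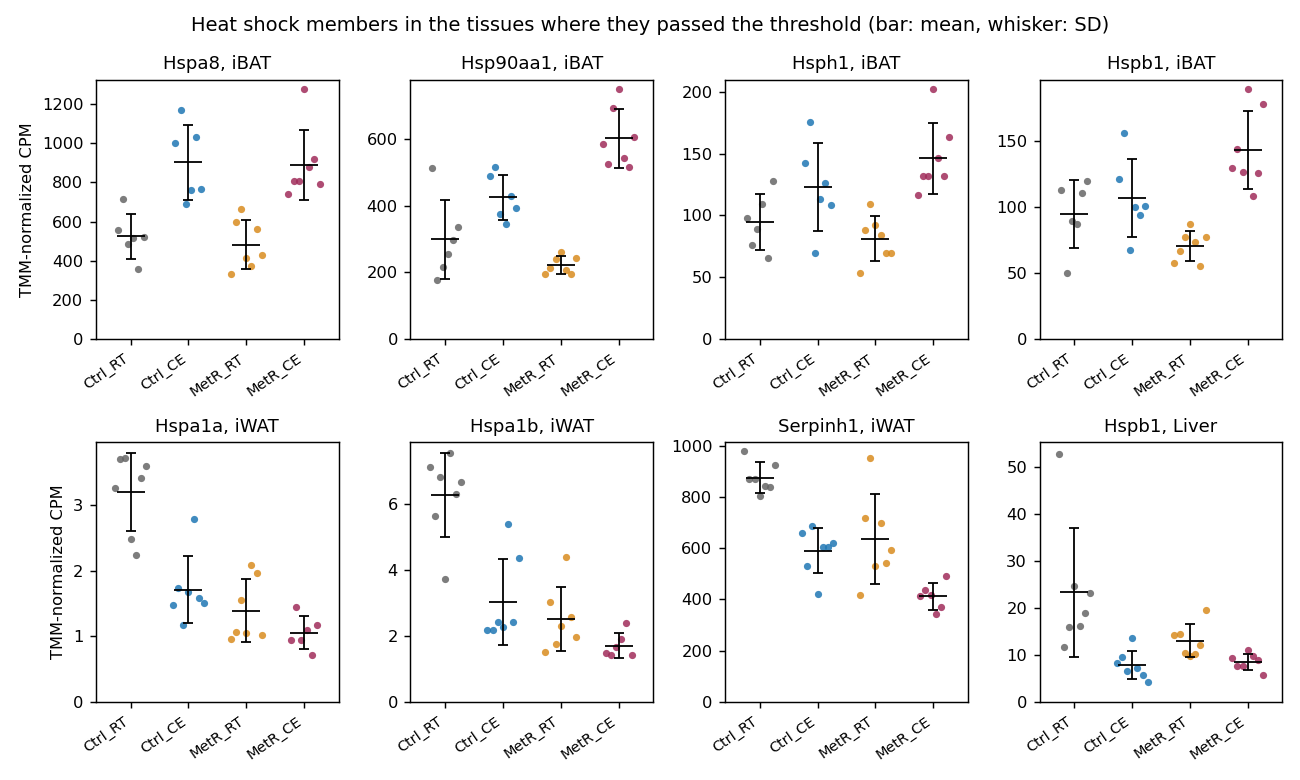
Level in every library used, in TMM-normalized CPM on the y axis, by group on the x axis, for heat shock members in tissues where they passed the threshold. Drawn are Hspa8, Hsp90aa1, Hsph1 and Hspb1 in iBAT, Hspa1a, Hspa1b and Serpinh1 in iWAT, and Hspb1 in liver. Hsph1 in iWAT and Hspa1a in liver were also called, both lower, and are not drawn. Points are mice, bars the mean and whiskers the SD. The MetR_CE points of Hsp90aa1 in iBAT (517 to 750 CPM) lie above all Ctrl_RT and MetR_RT points, and the MetR_CE points of Hspa1a, Hspa1b and Serpinh1 in iWAT lie below all Ctrl_RT points.

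Serpinh1 encodes HSP47, a chaperone of the endoplasmic reticulum that is dedicated to collagen. In iWAT it was at 803, 870 and 981 CPM in Ctrl_RT mice and at 422, 605 and 687 CPM in Ctrl_CE mice, with no overlap. MetR_RT mice had 417, 591 and 954 CPM and MetR_CE mice 342, 415 and 490 CPM. The change with cold was −0.57 ± 0.13 on the log2 scale (adjusted p = 0.00152, 1.48-fold) and with restriction −0.46 ± 0.13 (adjusted p = 0.0109), both short of 1.5-fold, and with both it was −1.09 ± 0.14 (adjusted p = 1.04e-06, 2.12-fold lower). Under restriction Serpinh1 fell with cold by 0.63 on the log2 scale (SE 0.14, adjusted p = 0.0088), and 2 of 10 members were called there beside 1.88% of genes. The interaction was −0.06 (95% interval −0.45 to 0.34).

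The collagen genes that Serpinh1 serves fell in the same iWAT samples. Of 16 collagens and collagen-processing genes, 10 fell with cold, 11 with restriction and 11 with both, none rose, and the median log2 changes were −1.14, −1.09 and −1.48, while the medians of all genes were −0.11, −0.03 and −0.08. P4ha1, a prolyl hydroxylase of collagen, had the smallest adjusted p in each, with log2 changes of −0.99, −0.83 and −1.29. The fibroblast markers named above ran from 1456 to 3008 CPM in Ctrl_RT to 681 to 1666 CPM in MetR_CE mice, and their part was not tested. In the joint fit the Serpinh1 response to cold differed between iWAT and iBAT by −0.88 ± 0.26 (adjusted p = 0.00654) and between iWAT and eWAT by −0.88 ± 0.27 (adjusted p = 0.0182, where 12.8% of genes passed). In iBAT Serpinh1 had a log2 change with cold of 0.31 ± 0.11 (adjusted p = 0.0273, 1.24-fold) while the collagen list there had 4 genes higher and 6 lower. In eWAT it was not called, with a change with cold of 0.30 (95% interval −0.35 to 0.95).

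Other chaperone genes were read beside the members. Of 25 other heat shock and co-chaperone genes, 2 rose with cold in iBAT (Bag3 by 0.64 and Dnaja4 by 1.15 on the log2 scale), 5 were higher in MetR_CE than in Ctrl_RT (Hspa4l, Dnaja1, Bag3, Dnaja4 and Hsp90ab1) and 7 rose with cold under restriction, and none fell. The shares of all genes called in these comparisons were 14.7%, 14.7% and 8.53%. Dnaja4, a J-domain partner of HSP70, was 1.7 higher on the log2 scale in MetR_CE than in Ctrl_RT (adjusted p = 2.35e-09). The list's median log2 changes in these comparisons were 0.20, 0.30 and 0.46, and those of the 10 members 0.26, 0.36 and 0.44. In iWAT none of the 25 was called with cold and 4 rose in MetR_CE (Hspd1, Dnajb4, Hspb6 and Hspa12a), with Dnajb4 at 0.71 (adjusted p = 2.2e-06), while Hspa1a and Hspa1b fell. In liver, Hspa2 and Hspa12a rose with cold, and in eWAT none of the 25 was called against Ctrl_RT. None of Hsf1, Hsf2, Hsf4, Hsf5 and the heat shock factor binding protein gene Hsbp1 was called in any tissue against Ctrl_RT. Hsf5 was below 1 CPM in every group of every tissue, so its lack of a call is uninformative. The Hsf1 transcript changed by −0.35 with cold both in liver (adjusted p = 0.000289) and in iWAT (adjusted p = 0.000811), under 1.5-fold.

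In eWAT, Rbm3 was the 1 member called in any comparison of the groups. The background there was 0.115% of genes for restriction and 1.3% for both treatments against Ctrl_RT, with no member called in either, and the 4 Ctrl_RT mice limit the precision. The eWAT counts of genes depended on the library set: with all deposited libraries 3268 instead of 360 genes were called for both treatments, 2595 instead of 673 for cold and 1 instead of 640 for the interaction. With cold in eWAT, Dio2 and Elovl3 of the 6 brown adipocyte markers rose and Adipoq of the 6 adipocyte markers fell. Elovl3 was below 1 CPM in Ctrl_RT eWAT. The summed brown adipocyte markers overlapped, at 22.98 to 35.67 CPM in Ctrl_RT and 24.59 to 60.68 CPM in Ctrl_CE mice. The summed adipocyte markers of these groups overlapped too. The part of these markers in the Rbm3 value was not tested. No member was called between MetR_CE and Ctrl_CE in any tissue, where 4.35% of genes were called in eWAT, 2.27% in iWAT, 1.64% in iBAT and 5.26% in liver. Nor was any called for the interaction in liver, iWAT or eWAT (1.06%, 1.65% and 2.3% of genes) or for cold under restriction in eWAT (0.112% of genes). For restriction alone no member was called in iBAT, where 2.5% of genes were, and in the joint edgeR fit no member's response differed past the threshold in the 3 pairs of tissues tested (iWAT with iBAT, iWAT with eWAT, liver with iBAT). Of all genes, 11.7%, 10.2% and 8.5% passed in these pairs.

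Hsp90aa1 and Hspa8 tended to be highest in the same library as Hsph1 within a group. In the library of each tissue and group with the highest Hsph1 level, Hsp90aa1 was also the highest of its group in 12 of 16 cases, Hspa8 in 10, Dnajb1 in 7 and Hspa1b in 5, while Rbm3 and Cirbp were each the lowest in 5. Hspa1a and Hspa1b had the same highest library in 9. Hspb1 and Serpinh1 were not counted in this way. Groups held 4 to 7 mice, and these members share libraries and depth, so the counts are descriptions.

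The clearest case was 1 mouse of the Ctrl_CE group, replicate 4 in every tissue by its animal number. This mouse was chosen because it had the most member values marked as far from their group (rule given below). The ranks that follow therefore partly restate that choice. Of the 7 heat shock members other than Serpinh1, it was the highest of its group for 6 in liver, 5 in iWAT, 4 in eWAT and none in iBAT. In liver it had Hsph1 at 128 CPM, where the other 6 Ctrl_CE mice had 43.9 to 78.3 CPM, Hsp90aa1 at 260 CPM against 99.9 to 153 CPM, and Hspa8 at 1017 CPM against 556 to 754 CPM. In iWAT it had Hsph1 at 97.2 CPM against 31.9 to 51.1 CPM and Hspa8 at 980 CPM against 490 to 667 CPM. Its Cirbp was the lowest of the group in liver, at 14.7 CPM against 21 to 23.1 CPM, and its Rbm3 was the lowest in iWAT and eWAT. In iBAT it had the lowest Hsp90aa1 of its group, at 345 CPM against 377 to 517 CPM, and its Cirbp was also the lowest in iBAT and iWAT. Its Serpinh1, left out of the counts above, went the other way. That gene was the lowest of the group in iBAT, iWAT and eWAT, at 422 CPM in iWAT against 530 to 687 CPM. In liver it was at 10.6 CPM against 10.5 to 13.3 CPM. Without this mouse the liver change of Hsp90aa1 with cold was −0.69 (adjusted p = 0.000744) and its interaction in liver 0.91 (adjusted p = 0.0124), both then called, whereas with it they were −0.50 and 0.72. The iWAT changes of Hspa1a and Hspa1b with cold were −0.89 and −0.97 without it and stayed called.

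**Figure D4:**
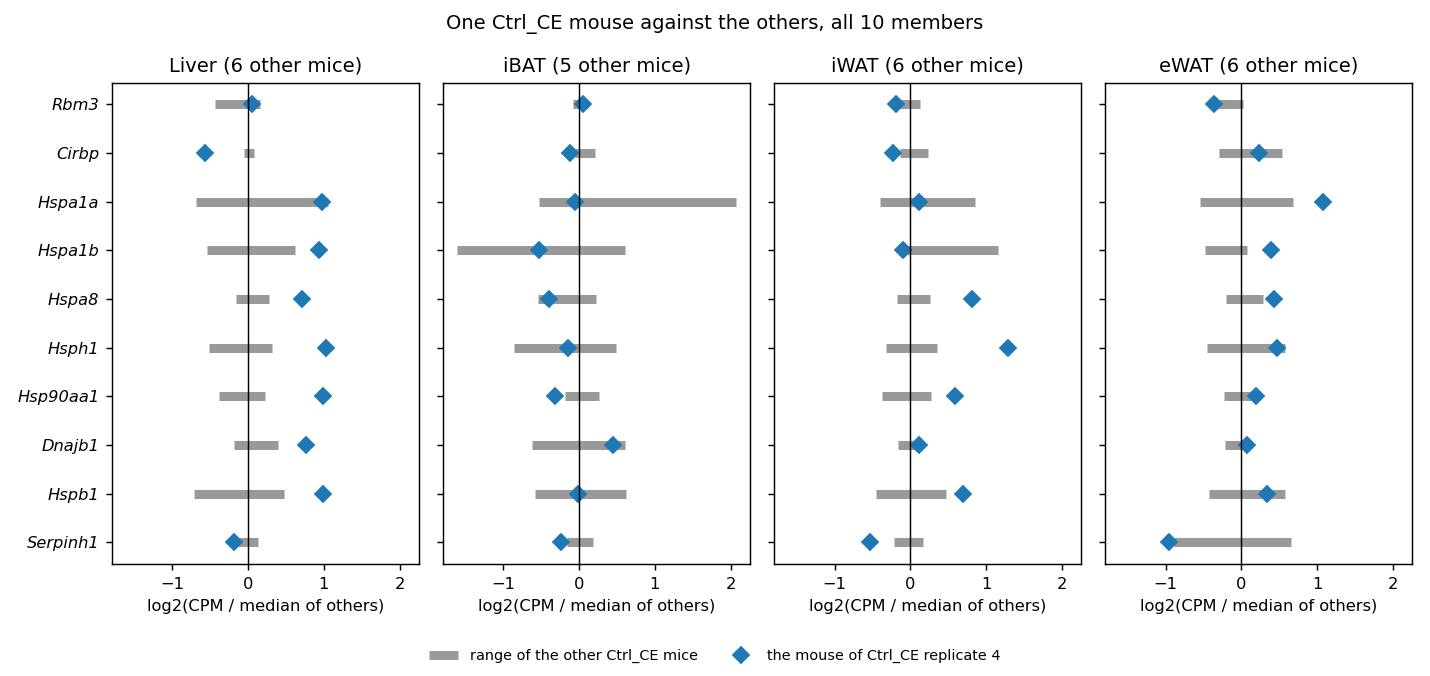
Level of each of the 10 members (y axis) in the Ctrl_CE mouse of replicate 4 (diamond), as the log2 ratio to the median of the other Ctrl_CE mice (x axis), in each tissue. The grey bar is the range of the other mice. In liver the diamonds of Hsph1, Hsp90aa1 and Hspa8 lie to the right of the bars and that of Cirbp to the left, and in iBAT no heat shock member lies to the right of its bar.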

How the data were processed

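Per the labels, poly(A) RNA from liver and 3 fat depots was made into libraries with a non-directional kit, 1 per mouse and tissue. The authors deposited 3 tables of raw gene counts, not normalized. The submitters' processing notes name STAR 2.7.9a with mm10, featureCounts 2.0.3, Salmon 1.9.0, MultiQC 1.19 and DESeq2 1.46.0. The names of the tables carry Salmon, and the methods describe both featureCounts and Salmon estimates summarised to genes by tximport. The values are whole numbers. Which of these routes made the tables is not stated, and reads of near-identical copies may have been split by estimation. All 110 count columns were mapped by name. The 5 libraries left out in the study are named by no label. They were inferred as the subsets, of the size the study states per group, whose removal brought mean normalized counts closest to the study's source data. These means were taken per gene over all remaining libraries of the tissue.

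Of 56884 gene identifiers, 51948 were matched to symbols without their version number. Genes with at least 10 counts in total were kept per tissue (22143 in liver, 23915 in iBAT, 26428 in iWAT, 27786 in eWAT). They were fitted with edgeR 4.0.16 in R 4.3.3 (TMM scaling, quasi-likelihood test, 1 mean per group), and p-values were adjusted by Benjamini-Hochberg over all genes of the tissue. A gene was called at an adjusted p below 0.05 and a change of at least 1.5-fold. SE is the log2 change divided by the square root of F. Differences between tissues came from 1 fit of 19993 genes. The limma 3.58.1, DESeq2 1.42.0 and apeglm 1.24.0 packages served as alternatives, with other scalings, filters, library sets and groupings. Depth, from 6987895 counts up, sets the precision of low genes such as Hspa1a.

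The members and the gene lists (other chaperones, heat shock factors with Hsbp1, splicing, collagen and immediate early genes, cell type markers) were chosen with earlier results of these data known. All members were named. Of each list, the gene with the smallest adjusted p and any count of 5 or fewer were named, with further values for genes chosen after their values were seen. Nearest patterns were taken over 16 group means. Promoter windows came from RefSeq (GRCm38.p6) and gene positions from GENCODE for mm10. The search for a pair of facing units was chosen after the longer form matched no member.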

Additional observations from a re-analysis of the deposited data

Results flagged for a closer look

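A library was marked when its gap to the nearest other value in its group was too large a part of the group's whole range for its size (Dixon's test at 95%). Of 160 gene, tissue and group combinations, 19 were marked, 16 for a highest and 3 for a lowest value. The test's rate of about 1 in 20 holds for independent, normally distributed groups. These CPM were not logged and the members share libraries, so the number marked cannot be held against that rate. Of these, 6 came from the mouse of Ctrl_CE replicate 4: in liver Cirbp at 14.7 CPM (lowest), Hsp90aa1 at 260 CPM, Hspa8 at 1017 CPM and Hsph1 at 128 CPM, and in iWAT Hspa8 at 980 CPM and Hsph1 at 97.2 CPM. The other high values in liver and iWAT were Hspa1a at 2.79 CPM in iWAT Ctrl_CE replicate 5, Hspb1 in Ctrl_RT replicate 1 in both iWAT (75.2 CPM) and liver (52.8 CPM), and Cirbp at 78.8 CPM in iWAT MetR_CE replicate 5. In that last library Hsph1 was marked as lowest, at 26.2 CPM, and Dnajb1 was lowest at 18.4 CPM in liver Ctrl_RT replicate 2. In iBAT the marked values were Hspa1a at 1.87 CPM in MetR_CE replicate 5, Hspa8 at 1277 CPM in MetR_CE replicate 4, Hspa1a at 4.81 CPM and Hspa1b at 6.47 CPM in MetR_RT replicate 4, and Serpinh1 at 372 CPM in MetR_RT replicate 3. In eWAT they were Hsph1 at 80.7 CPM and Serpinh1 at 1126 CPM, both in MetR_RT replicate 3.

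The log2 change with cold on the control diet differed between tissues at an adjusted p below 0.05 for 4 members in the joint edgeR fit. The differences were −0.88 for Serpinh1 both between iWAT and iBAT and between iWAT and eWAT, −0.70 for Hsp90aa1 between iWAT and iBAT, and, between liver and iBAT, −1.75 for Hspb1, −0.63 for Hspa8 and −1.0 for Hsp90aa1. Of all genes, 23% passed between iWAT and iBAT, 12.8% between iWAT and eWAT and 27.7% between liver and iBAT. Each mouse gave several tissues. With the mouse as a block in limma, 3 further differences passed, all between iWAT and eWAT: Hspa1b with cold, and Hspa1a (adjusted p = 0.0128) and Hspa1b with restriction. Of all genes, 16.7% passed there with cold and 14.5% with restriction. With all libraries, Dnajb1 with cold passed between iWAT and eWAT too (0.79, adjusted p = 0.0109). The response of Hsp90aa1 to cold in iBAT differed between diets by 0.93.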

How the results depend on the processing

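Of 4548 values of single members under other settings, 4477 kept their side of the thresholds, 32 calls were lost, 39 were gained and no called value changed direction. Values called under neither setting count as kept, and 131 of these changed sign, so the kept share does not measure how stable the calls were. The summed Hspa1a and Hspa1b was compared with Hspa1b alone, and members that a setting did not test were not counted. The liver Hspa1a call for restriction, lost on summing and untested with filterByExpr, is therefore not among the 32. The glmTreat test described next lost 18 of the calls. The counts of members called that moved by over 1.5 times were these. Tested against 1.5-fold itself (glmTreat), 0 members were called for cold under restriction in liver and in iWAT, for restriction in liver, for cold on the control diet in eWAT and in iBAT, and for the interaction in iBAT, and 1 was called for cold in iWAT and for MetR_CE against Ctrl_RT and against MetR_RT in iBAT. That test called few genes of any kind in some of these comparisons, such as 68 of 22143 in liver and 4 of 26428 in iWAT for cold under restriction, and 3 of 27786 for cold in eWAT. DESeq2 without shrinkage called 1 member for MetR_CE against Ctrl_CE in liver and in eWAT and 2 in iWAT, and 1 for the interaction in eWAT and 2 in iBAT. With apeglm shrinkage the counts were 2 for MetR_CE against Ctrl_RT and for the interaction in iBAT, and 1 for cold under restriction in iWAT. In fits of the compared groups only, 1 was called for MetR_CE against Ctrl_CE and 2 for MetR_CE against MetR_RT in liver. With filterByExpr there was 1 for restriction in liver, 1 for the interaction in eWAT and 2 for MetR_CE against Ctrl_CE in iWAT, and with RLE factors 1 for the interaction in eWAT. With Hspa1a and Hspa1b summed, 1 was called for restriction in liver, 1 for restriction in iWAT and 1 for MetR_CE against Ctrl_CE in iWAT. The count for restriction in iWAT fell only because the 2 called members became 1, and the summed gene was still called. With all libraries 1 was called for cold in iBAT. The iBAT interaction had 0 with groups by treatment tag and 0 without the 3 libraries of conflicting tags. The eWAT interaction calls were Rbm3. With filterByExpr the liver count fell because Hspa1a did not pass that filter there and was not tested. Apart from this and the merging of 2 members into 1, the cause of these moves was not tested.

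Replicate numbers did not mark shared animals across groups, and same-numbered mice correlated above 0.1 in 5 of 42 pairs in liver, 16 of 36 in iBAT, 19 of 39 in iWAT and 15 of 30 in eWAT. With the replicate block, 2 members were called for cold and 1 for MetR_CE against Ctrl_CE in liver, 1 for the interaction in eWAT and 0 for it in iBAT.

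Every library in turn was left out in eWAT only, where a group held 4 mice. Elsewhere only libraries far from their group for a member were left out, 3 in liver, 4 in iBAT and 4 in iWAT. Leaving out 1 replicate at a time, counts ran from 1 to 2 in liver for cold, restriction, both and cold under restriction, and from 0 to 1 for MetR_CE against Ctrl_CE and for the interaction. In iBAT they were 2 for cold, 0 to 1 for restriction and for the interaction, 2 to 4 for both, 4 to 5 for cold under restriction and 0 for MetR_CE against Ctrl_CE. In iWAT they were 3 for cold, 2 for restriction, 4 to 5 for both, 2 for cold under restriction, 0 to 1 for MetR_CE against Ctrl_CE and 0 for the interaction. In eWAT they were 1 for cold, 0 for restriction and for cold under restriction, and 0 to 1 otherwise. Fits of the compared groups only give no interaction. Counts as low as 1 per library limit Hspa1a in liver.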
